A study of Mus musculus with 12 samples.

Results

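The genes of MHC class II antigen presentation were followed in mouse hearts that had lost HDAC3 and in mouse hearts whose HDAC3 was present but inactive. The 8 genes were taken by symbol, H2-Aa, H2-Ab1, H2-Eb1, H2-DMa, H2-DMb1, Cd74, Ctss and Ciita, and all 8 were found among the 15471 genes measured in both experiments. Total RNA of hearts was sequenced in 12 libraries, 3 per group and 6 per experiment. In the first experiment hearts labelled HDAC3 knockout (KO) were set against wild-type (WT) hearts, and in the second NS-DADm hearts were set against WT hearts of their own. HDAC3 is a histone deacetylase that is active only when bound to the deacetylase-activating domain of the corepressors NCOR1 and SMRT. NS-DADm stands for mutations in that domain of both corepressors, and the labels call HDAC3 inactive in these hearts. Every group is given by its genotype alone: neither treatment, age, strain, sex nor the Cre or promoter behind the knockout is given in the labels, and the knockout experiment carries the tag hM, which the labels do not explain. Values are FPKM, fragments divided by transcript length and by the total of the library, so levels can be compared between genes; the 2 tables were normalized separately, and levels set across them carry that limit.

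MHC class II molecules are pairs of an alpha and a beta chain that show peptides from taken-up proteins to CD4+ T cells. In the heart they are known mainly from dendritic cells and from a part of the macrophages. CIITA is the coactivator that switches on the genes of the class II chains, the invariant chain and H2-DM. It is recruited by RFX, CREB and NF-Y proteins bound to X and Y boxes upstream of these genes. New class II molecules are held by the invariant chain (CD74), cathepsin S (CTSS) cuts that chain down to a stub, and the H2-DM dimer exchanges the stub for peptide.

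The stretches upstream of the transcription starts show where X and Y boxes were found and where they were not. RefSeq (GRCm38.p6) gave 6 promoter entries for 5 of the 8 genes, and 4 of them are printed here as the 250 bases before the annotated start, 5′ to 3′ on the gene's strand. Capitals mark matches, on either strand, to the Y box core TGATTGG, the X1 box (GNAAC directly followed by NGATG), the X2 box TGACGTCA and the interferon response element (GAAA, NN and GAAA in a row), where N is any base.
H2-Aa, chr17:34287824-34288073, minus strand: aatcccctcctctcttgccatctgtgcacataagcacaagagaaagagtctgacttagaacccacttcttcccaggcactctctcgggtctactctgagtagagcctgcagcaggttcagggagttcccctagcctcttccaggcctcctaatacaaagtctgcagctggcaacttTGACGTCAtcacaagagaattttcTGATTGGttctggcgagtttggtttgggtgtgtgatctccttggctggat
H2-Eb1, chr17:34305617-34305866, plus strand: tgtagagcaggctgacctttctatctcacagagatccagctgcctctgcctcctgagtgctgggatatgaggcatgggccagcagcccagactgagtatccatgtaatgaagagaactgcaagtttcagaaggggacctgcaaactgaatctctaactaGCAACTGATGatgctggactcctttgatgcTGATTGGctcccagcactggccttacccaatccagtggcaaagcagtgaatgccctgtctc
H2-DMb1, chr17:34152941-34153190, plus strand: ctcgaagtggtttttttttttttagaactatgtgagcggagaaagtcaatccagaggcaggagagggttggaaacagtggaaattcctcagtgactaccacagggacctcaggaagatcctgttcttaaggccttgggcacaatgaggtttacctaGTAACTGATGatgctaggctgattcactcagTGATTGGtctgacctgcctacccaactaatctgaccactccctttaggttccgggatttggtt
Ctss, chr3:95526536-95526785, plus strand: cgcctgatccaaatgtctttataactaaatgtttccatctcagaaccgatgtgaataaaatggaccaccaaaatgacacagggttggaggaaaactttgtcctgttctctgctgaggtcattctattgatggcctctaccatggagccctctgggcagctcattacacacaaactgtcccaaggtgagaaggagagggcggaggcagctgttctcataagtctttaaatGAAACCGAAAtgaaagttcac

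The Y box core began 50 bases before the start of H2-Aa, 61 before that of H2-Eb1 and 63 before that of H2-DMb1, and it was present in 7.23% of the 32851 promoter entries of the table. The X1 box lay further upstream in H2-Eb1 (91 bases before the start) and H2-DMb1 (94 bases) and was present in 0.682% of entries. In H2-Aa the X2 box stood at 74 bases, as in 1.55% of entries. The Ctss entry held none of these 3 motifs and had an interferon response element 21 bases before its start, a match found in 2.98% of entries. Both H2-DMa entries held none of the 4 motifs, so no motif was common to all 5 genes. None of the printed matches overlapped another, and a match describes letters, not bound protein.

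In KO hearts the class II genes were higher as a group. All 7 genes that could be tested rose, with 2.56-fold to 6.52-fold higher mean FPKM, and the lowly expressed regulator Ciita was 1.93-fold higher without reaching the level needed for the test. A gene was tested with limma on log2(FPKM + 1) if it had at least 1 FPKM in 3 or more of the 6 libraries, and was called at a Benjamini-Hochberg adjusted p under 0.05 over all genes. The 7 tested genes stood at 3.78 FPKM or more in each of the 12 libraries. The knockout moved much of the transcriptome: 38.2% of the 11810 genes tested were called higher and 27.6% lower, 65.8% in all, so a call alone says little about a gene. The median fitted change was 1.48 on the log2 scale over the 7 genes and 0.06 over all genes tested.

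The 3 classical chains moved closely together. H2-Aa, the alpha chain of I-A, stood at 85.9, 88.7 and 85.5 FPKM in WT replicates 1, 2 and 3 and at 267, 276 and 261 FPKM in the KO replicates. The groups lay far apart, with means of 86.7 ± 1.74 and 268 ± 7.29 FPKM (SD, n = 3 each), a 3.09-fold difference (log2 fold change 1.62, SE 0.0345, limma adjusted p = 4.96e-11). H2-Ab1, its beta chain, was at 58.0, 60.9 and 59.1 FPKM in WT and at 178, 174 and 160.3 FPKM in KO. Again every KO library was above every WT library, and the means differed 2.88-fold (log2 fold change 1.51, SE 0.0439, limma adjusted p = 4.49e-10). For H2-Eb1, the beta chain of I-E, the WT libraries gave 33.3, 36.5 and 34.9 FPKM and the KO libraries 97.2, 104.8 and 95.7 FPKM, 2.84-fold more (log2 fold change 1.48, SE 0.0483, limma adjusted p = 1.01e-09). An antisense gene, Gm20513, overlaps the start of H2-Eb1, and the labels do not say if fragments were counted by strand.

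The genes that load the class II molecule rose by similar amounts, except Ctss. Cd74, the invariant chain and the most abundant member, had 163, 174 and 159.97 FPKM in WT and 435, 433 and 408 FPKM in KO. Its KO libraries were 2.57-fold above WT (log2 fold change 1.36, SE 0.0406, limma adjusted p = 5.46e-10). H2-DMa, the alpha chain of the peptide exchanger, went from 4.36, 4.19 and 5.2 FPKM to 12.3, 11.5 and 11.4 FPKM, 2.56-fold (log2 fold change 1.19, SE 0.0776, limma adjusted p = 2.08e-07). H2-DMb1, its beta chain, went from 5.38, 5.73 and 6.67 FPKM to 13.4, 15.95 and 16.3 FPKM, 2.57-fold (log2 fold change 1.23, SE 0.0894, limma adjusted p = 5.16e-07). Both DM chains were far less abundant than the classical chains, and their KO libraries were clear of the WT range. H2-DMa overlaps Brd2 on the opposite strand, and H2-DMb1 has a near-identical neighbour, H2-DMb2, so reads of these pairs may be shared.

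Ctss had the largest fold of the 8 genes in KO hearts. Cathepsin S stood at 15.3, 16.3 and 18.1 FPKM in WT and at 108, 112 and 104 FPKM in KO, with no library of one group near the other. The means were 16.6 ± 1.38 and 108 ± 4.29 FPKM (SD, n = 3 each), a 6.52-fold difference (log2 fold change 2.64, SE 0.0582, limma adjusted p = 6.45e-11). Relative to H2-Ab1, Ctss changed from 0.265 to 0.306 in the WT libraries to between 0.61 and 0.647 in the KO libraries.

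Ciita stayed under 1 FPKM in every library. It was at 0.38, 0.58 and 0.52 FPKM in WT and at 0.94, 0.96 and 0.96 FPKM in KO, which corresponds to an estimated 20, 30 and 27 fragments against 56, 60 and 59. The groups did not overlap, and an exact two-sided permutation test of the 6 libraries gave p = 0.1, the smallest value that 3 against 3 allows. With no filter on low values limma gave a log2 fold change of 0.39 with an adjusted p of 0.00283. With libraries rescaled to the same total it passed the filter only through the KO libraries, which fixes the direction (0.54, adjusted p = 0.0017). All 8 members had KO libraries above all WT libraries, which was so for 40.2% of the genes tested. The authors' deposited table lists all 8 as changed in KO, 7 of them in its stricter list, without Ciita.

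**Figure D1:**
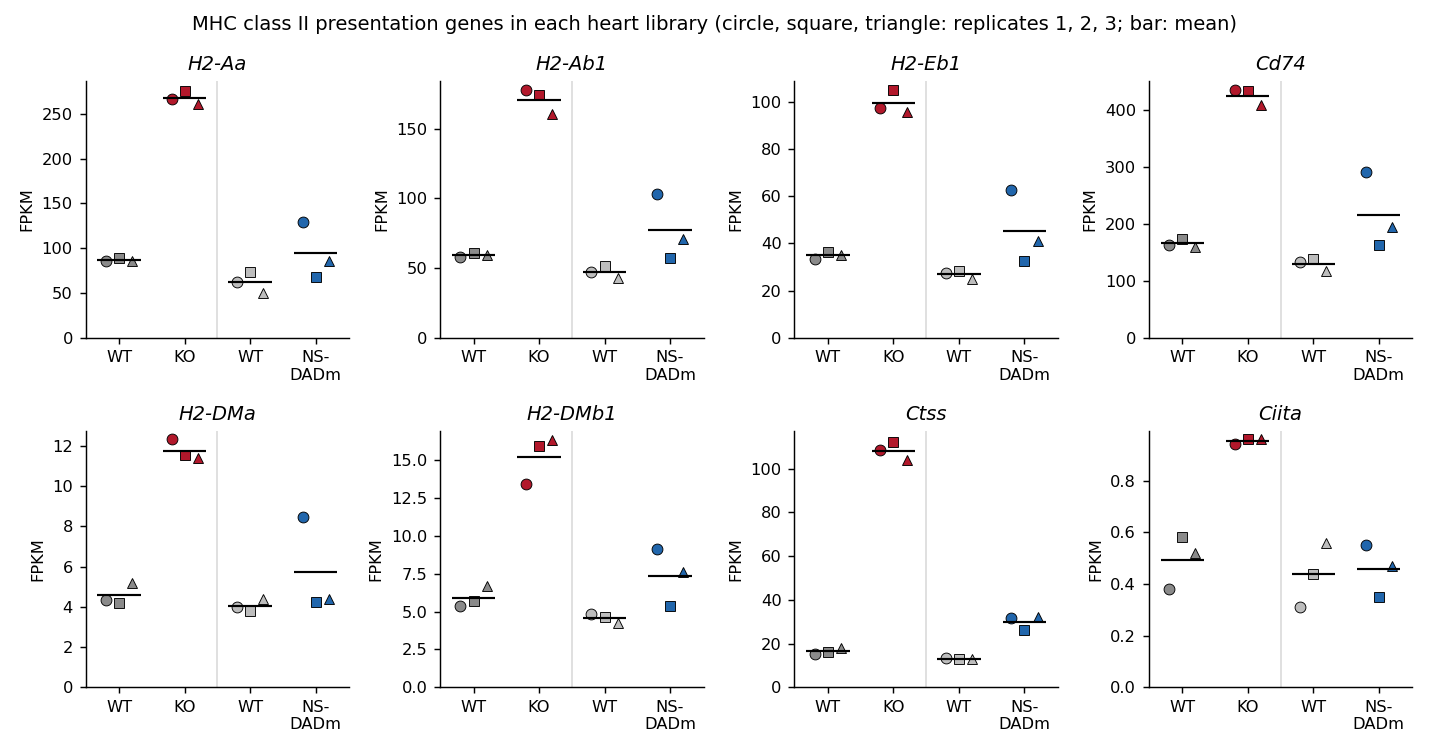
FPKM of the 8 genes in each library, with one panel per gene and its own axis from 0. Symbols are single libraries (circle, square and triangle for replicates 1, 2 and 3) and bars are group means; the KO libraries lie above their WT for all 8 genes, and NS-DADm replicate 1 lies above replicates 2 and 3 for the classical chains, Cd74 and the DM chains.

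In NS-DADm hearts only Ctss rose, and the classical chains varied widely between the mutant libraries. In that experiment 1.26% of the 11704 genes tested were called higher and 1.43% lower, 2.69% in all, and 1 of the 7 tested members was called. Groups did not overlap, with NS-DADm higher, for 5 of the 7 tested members, as for 9.18% of genes tested. The median fitted change was 0.65 on the log2 scale over the 7 genes and -0.02 over all genes. Ctss stood at 13.6, 12.9 and 12.9 FPKM in WT and at 31.9, 26.2 and 32.1 FPKM in NS-DADm. All 3 mutant libraries were raised, by 2.28-fold on average (log2 fold change 1.13, SE 0.0852, limma adjusted p = 0.000313). The authors' deposited table also lists Ctss alone of the 8 genes for NS-DADm.

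H2-Aa was at 62.5, 73.9 and 50.4 FPKM in WT and at 129, 68.2 and 85.5 FPKM in NS-DADm replicates 1, 2 and 3. Replicate 1 was well above the WT range and replicate 2 inside it, so the groups overlapped, and the 1.51-fold higher mean was not called (log2 fold change 0.56, SE 0.269, limma adjusted p = 0.352). For H2-Ab1 the WT libraries gave 47.3, 51.7 and 43.1 FPKM and the NS-DADm libraries 103, 57.0 and 70.9 FPKM (log2 fold change 0.65, SE 0.214, limma adjusted p = 0.184). H2-Eb1 had 27.4, 28.2 and 24.96 FPKM in WT and 62.6, 32.5 and 41.1 FPKM in NS-DADm (log2 fold change 0.69, SE 0.232, limma adjusted p = 0.198). In both beta chains every mutant library was above every WT library, but the range of the mutant libraries exceeded the difference of the means.

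Cd74 showed the same order of libraries, with 132, 138 and 116 FPKM in WT and 291, 164 and 194 FPKM in NS-DADm (log2 fold change 0.70, SE 0.213, limma adjusted p = 0.161). H2-DMa was at 3.99, 3.78 and 4.37 FPKM in WT and at 8.47, 4.24 and 4.41 FPKM in NS-DADm, where only replicate 1 stood apart (log2 fold change 0.36, SE 0.217, limma adjusted p = 0.432). H2-DMb1 had 4.81, 4.67 and 4.23 FPKM in WT and 9.12, 5.34 and 7.63 FPKM in NS-DADm, with no overlap (log2 fold change 0.56, SE 0.155, limma adjusted p = 0.101). Without NS-DADm replicate 2, the lowest mutant library, H2-DMb1 was called (log2 fold change 0.75, limma adjusted p = 0.014; range over 14 alternatives 0.014 to 0.259). Ciita overlapped, at 0.31, 0.44 and 0.56 FPKM in WT against 0.55, 0.35 and 0.47 FPKM in NS-DADm, a fold of 1.05 with an estimated 21 to 43 fragments per library.

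The mutant libraries kept one order across the genes. Against the WT mean, replicate 1 was 2.07-fold higher for H2-Aa, 2.17-fold for H2-Ab1, 2.33-fold for H2-Eb1, 2.26-fold for Cd74, 2.09-fold for H2-DMa and 2.0-fold for H2-DMb1. Replicate 2 was between 1.05-fold and 1.27-fold higher for the same 6 genes, and replicate 3 lay between them, at 1.09-fold to 1.67-fold. The order was not particular to class II: the erythroid gene Hbb-bs, at 2567, 2199 and 2209 FPKM in WT, was at 2134, 1099.8 and 1549 FPKM in NS-DADm replicates 1, 2 and 3, below WT, and the other tested erythroid genes had the same order of mutant libraries. The part of blood in the class II values was not tested. Ctss shared the low replicate 2, but its replicate 1 did not stand above replicate 3. It was 2.42-fold, 1.99-fold and 2.44-fold above the WT mean in replicates 1, 2 and 3. Without replicate 1 the fitted changes were 0.31 for H2-Aa, 0.42 for H2-Ab1, 0.43 for H2-Eb1, 0.47 for Cd74 and 1.08 for Ctss on the log2 scale, and the only call among them was that of Ctss (limma adjusted p = 0.00356; range over 14 alternatives 0.000102 to 0.00356).

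The effect of KO was larger than that of NS-DADm for each of the 7 tested genes when the difference itself was tested. The difference was fitted in all 12 libraries as the KO effect minus the NS-DADm effect, each within its own experiment, and 28.2% of the 11604 genes tested were called with a higher KO effect and 17.7% with a lower one, 46% in all. It was 1.06 on the log2 scale for H2-Aa (SE 0.287, limma adjusted p = 0.0131), 0.86 for H2-Ab1 (SE 0.231, adjusted p = 0.0108) and 0.80 for H2-Eb1 (SE 0.25, adjusted p = 0.0238). The DM chains differed by 0.84 (H2-DMa, SE 0.245, adjusted p = 0.0133) and 0.67 (H2-DMb1, SE 0.196, adjusted p = 0.0128). Ctss had the largest difference, 1.51 (SE 0.108, limma adjusted p = 8.53e-08), and Cd74 the smallest, 0.65 (SE 0.231, adjusted p = 0.0399). The median difference was 0.84 over these genes and 0.08 over all genes. The call for Cd74 was lost without any 1 of the WT or KO libraries of the KO experiment, WT replicate 1 or 2 of the NS-DADm experiment or NS-DADm replicate 3 (adjusted p 0.0584 to 0.0867), and with libraries centred on their median (0.0695). That for H2-Eb1 was lost without WT replicate 1 or KO replicate 2 of the KO experiment, WT replicate 1 or 2 of the NS-DADm experiment or NS-DADm replicate 3 (adjusted p 0.0509 to 0.0552).

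**Figure D2:**
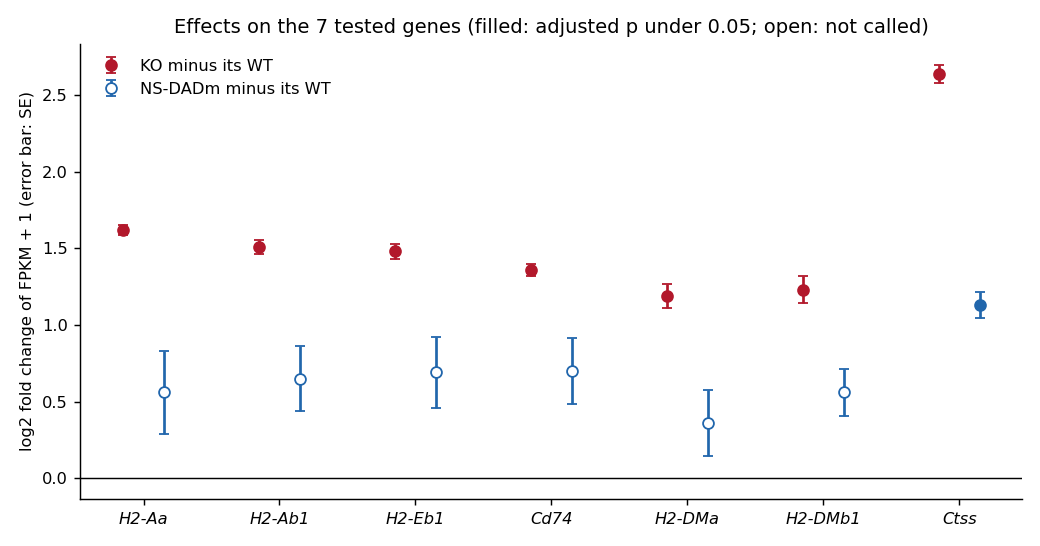
Fitted log2 fold changes of FPKM + 1 for the 7 tested genes, KO (red) and NS-DADm (blue) against their own WT, with standard errors. All 7 KO values are called and lie between 1.19 and 2.64; of the NS-DADm values, between 0.36 and 1.13, that of Ctss is called.

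The order of levels among the genes was similar in the groups. In WT hearts of both experiments it ran Cd74, H2-Aa, H2-Ab1, H2-Eb1, Ctss, the DM chains and Ciita by mean FPKM, and in NS-DADm hearts it was the same. In KO hearts Ctss, at 104 to 112 FPKM, reached the level of H2-Eb1, at 95.7 to 104.8 FPKM, and the libraries of these neighbours overlapped. H2-DMa and H2-DMb1 were close in every group: the ratio of their FPKM was 0.731 to 0.81 in WT and 0.697 to 0.919 in KO, and 0.809 to 1.03 in WT and 0.578 to 0.929 in NS-DADm.

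Ratios between the chains changed less than their levels. H2-Eb1 stood at 0.574 to 0.599 of H2-Ab1 in WT and 0.548 to 0.602 in KO, and at 0.546 to 0.579 in WT and 0.569 to 0.608 in NS-DADm. H2-Aa was 1.45 to 1.48 times H2-Ab1 in WT and slightly higher, 1.5 to 1.63 times, in KO, with no overlap. In the NS-DADm experiment it was 1.17 to 1.43 times in WT and 1.2 to 1.25 times in the mutant. Cd74 was 2.71 to 2.85 times H2-Ab1 in WT and lower, 2.45 to 2.55 times, in KO, with no overlap, while in the NS-DADm experiment it was 2.66 to 2.8 times in WT and 2.74 to 2.87 times in the mutant. These ratios are descriptions per library and were not tested.

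Markers of cells that can carry class II molecules rose in KO hearts as well. The libraries hold RNA of heart tissue, not of separated cells, so more cells of a type and more RNA per cell cannot be told apart. All 13 macrophage markers rose in KO hearts, and their summed level went from between 315 and 340 FPKM to between 1870 and 1910 FPKM. Csf1r, the receptor for the growth factor of macrophages, went from 11.9 ± 0.757 to 51.4 ± 1.64 FPKM, and Adgre1, which encodes the macrophage surface protein F4/80, from 3.67 ± 0.28 to 23.4 ± 0.949 FPKM (SD, n = 3 each). Of 6 pan-leukocyte genes 6 rose, among them Ptprc, which encodes CD45, from 2.54 ± 0.185 to 8.62 ± 0.816 FPKM. In NS-DADm hearts 4 of 12 tested macrophage markers rose (C1qa, C1qb, C1qc and Csf1r), against 1.26% of all genes tested. The summed level went from between 296 and 330 FPKM to between 380 and 438 FPKM. Without WT replicate 1 or 2 or NS-DADm replicate 1, 2 rose. Csf1r there was 12.6, 10.8 and 12.7 FPKM in WT and 16.8, 16.0 and 15.4 FPKM in the mutant, without the high value of replicate 1 that the class II genes showed. The macrophage markers did not share one order. C1qa (86.75, 79.27 and 85.15 FPKM in NS-DADm replicates 1, 2 and 3) and C1qb (78.83, 63.17 and 74.48 FPKM) had the order of the class II genes. C1qc (70.4, 59.63 and 70.96 FPKM) was lowest in replicate 2 and highest in replicate 3. Markers of other cells moved in KO hearts as well. All 5 tested erythroid genes fell, with a median log2 fold change of -1.63, as did all 7 endothelial genes (median -0.49) and 5 of 9 cardiomyocyte genes, of which 2 rose. Of 6 fibroblast genes 4 rose, Col1a1, Col3a1, Dcn and Lum, and Tcf21 fell. Over all genes tested 38.2% were called higher in KO and 27.6% lower. The part of any of these cells in the class II changes was not tested.

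Set against macrophage genes, class II was lower or higher in KO libraries than in their WT depending on the markers taken. The geometric mean of H2-Aa, H2-Ab1, H2-Eb1 and Cd74 was 22.3, 23.2 and 22.5 times that of Csf1r, Adgre1, Mertk and Fcgr1 in WT and 14.8, 14.9 and 14.9 times in KO. The groups did not overlap, and the KO ratio was 0.656 of the WT ratio, with a class II mean 2.84-fold and a macrophage mean 4.33-fold above WT. With Cd68, C1qa, C1qb and C1qc in the denominator the KO ratio was 0.507 of WT. Against the 5 markers of resident macrophages (Timd4, Lyve1, Folr2, Cd163 and F13a1), a choice made after seeing the data, the direction turned: the ratio was 15.2, 14.8 and 13.8 in WT and 18.6, 18.8 and 16.5 in KO, 1.23 times WT. All 5 of these markers were called higher in KO hearts, against 38.2% of all genes tested. Their folds ran from 1.61-fold for Cd163 and 1.63-fold for Lyve1 to 3.26-fold for F13a1. Timd4 was under 1 FPKM in every WT library and was tested only through its KO libraries, which fixes its direction. In NS-DADm hearts Folr2 alone of the 5 was called. In the NS-DADm experiment the ratio to the mean of Csf1r, Adgre1, Mertk and Fcgr1 was 17, 20.7 and 17.6 in WT. It was 31.3, 17.5 and 20.6 in the mutant, with replicate 1 alone outside the WT range. Against the resident macrophage markers it was 8.43, 9.27 and 7.03 in WT and 12.4, 6.7 and 8.08 in the mutant. There replicate 1 lay above the WT range and replicate 2 below it. Ctss behaved otherwise against the mean of Csf1r, Adgre1, Mertk and Fcgr1, the only denominator taken for it. Its ratio was 4.74 to 5.58 in WT and 7.57 to 7.73 in KO, and 4.05 to 4.55 in WT and 6.81 to 8.01 in NS-DADm. It was higher in all libraries of both mutants. Fcgr1, part of that mean, was under the filter in the NS-DADm experiment. It stood at 0.89, 1.13 and 0.56 FPKM in WT there and at 0.99, 0.81 and 1.16 FPKM in the mutant. The 6.52-fold higher level of Ctss in KO was not particular to it. Adgre1 was 6.37-fold, Fcgr1 7.28-fold and Trem2 9.48-fold higher, while Csf1r (4.32-fold) and Mertk (1.75-fold) had smaller folds. The mean of Cd68 and the C1q genes was 5.6-fold higher. The ratio of class II to Ptprc overlapped in both experiments, with 27.3 to 32.8 in WT and 22.0 to 27.5 in KO, and 24.8 to 31.8 in WT and 30.8 to 33.2 in NS-DADm. Ptprc itself had the order of the class II genes in NS-DADm hearts, with 3.76, 2.13 and 2.71 FPKM in replicates 1, 2 and 3.

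**Figure D3:**
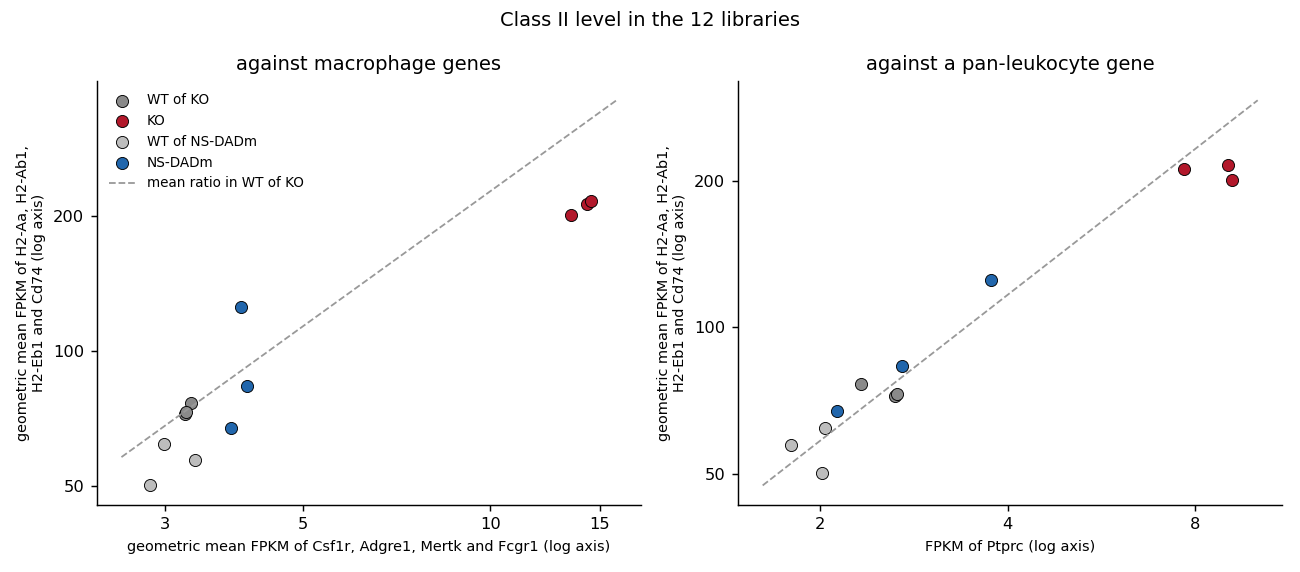
Geometric mean FPKM of H2-Aa, H2-Ab1, H2-Eb1 and Cd74 in the 12 libraries against that of 4 macrophage genes (left) and against Ptprc (right), on log axes; the dashed line is the mean ratio in the WT of the KO experiment. KO libraries lie below the line on the left (ratios of 14.8 to 14.9 against 22.3 to 23.2 in WT; against resident macrophage markers, not plotted, the KO ratio was the higher), and NS-DADm replicate 1 (31.3) lies above it.

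Markers of the other cells that carry class II did not move as one. B cell markers summed to between 3.03 and 4.68 FPKM in WT and between 3.93 and 4.82 FPKM in KO, and to between 2.19 and 3.37 FPKM in WT and between 2.0 and 3.97 FPKM in NS-DADm. The dendritic cell list summed to between 31.0 and 34.3 FPKM in WT and between 51.4 and 52.9 FPKM in KO, and to between 28.7 and 39.3 FPKM in WT and between 35.0 and 41.6 FPKM in NS-DADm. Within it Flt3 and Xcr1, which define conventional dendritic cells and their cross-presenting subset, stood at 0.5 FPKM or less in every library, while Clec9a, another marker of that subset, stood at 1.05 to 2.41 FPKM and overlapped between groups. Batf3, a transcription factor of the same subset, was under the filter, at 0, 0.2 and 0 FPKM in WT and 1.73, 0.82 and 0.83 FPKM in KO, and at 0.29, 0.15 and 0.28 FPKM in WT and 0.88, 0.37 and 0.76 FPKM in NS-DADm. Its mutant libraries were above its WT libraries in both experiments. Ccr7, of migrating dendritic cells, was under the filter as well, at 0.31 to 0.38 FPKM in WT and 0.68 to 1.11 FPKM in KO. In KO hearts 3 of 6 tested genes of that list rose, Clec10a, Fscn1 and Itgax, which macrophages or other cells can also express, and Naaa fell. With 38.2% of all genes called higher and 27.6% lower, these counts do not set the list apart. Most of the rise of the list's sum in KO came from Fscn1, which went from 12.8 ± 1.31 to 27.8 ± 0.8 FPKM (SD, n = 3 each). Zbtb46 and Clec9a were not called. Itgax was under 1 FPKM in every WT library, so its direction was fixed by the filter. In NS-DADm hearts 0 of 5 tested dendritic cell genes were called by limma, and 0 had an unadjusted p under 0.05. Clec10a, at 3.66, 1.32 and 2.13 FPKM in NS-DADm replicates 1, 2 and 3, had the order of the class II genes. So did the untested Itgax (0.92, 0.44 and 0.6 FPKM), Batf3, Xcr1, Itgae and Cd209a, all under 1 FPKM in these libraries. Naaa had that order with small differences (10.48, 9.81 and 10.44 FPKM). Clec9a, Zbtb46, Fscn1 and Ccr7 of the same list did not, and Flt3 was at 0.13, 0.11 and 0.11 FPKM.

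Further genes of the class II pathway rose in KO hearts too. Of 15 genes listed, 12 were measured and 9 tested, and 9 of 9 were called higher, against 38.2% of all genes tested. The median log2 fold change was 0.95 against 0.06 over all genes. The interferon-inducible thiol reductase Ifi30, which unfolds proteins for loading, went from 10.6 ± 0.734 to 32.6 ± 0.826 FPKM (limma adjusted p = 2.6e-09). Cd83, which keeps class II molecules at the cell surface, went from 3.17 ± 0.52 to 10.6 ± 0.529 FPKM (adjusted p = 1.14e-07). Other lysosomal proteases had smaller folds than Ctss: Ctsl went from 115 ± 3.15 to 216 ± 3.92 FPKM and Lgmn from 65.0 ± 3.83 to 127 ± 3.87 FPKM. H2-Ob, the beta chain of the DM inhibitor H2-O, rose from 0.6 ± 0.24 to 1.05 ± 0.0265 FPKM (SD, n = 3 each, limma adjusted p = 0.0155), and it was tested only through its KO libraries, which fixes the direction. Its partner H2-Oa was not tested, at 0.283 ± 0.189 FPKM in WT and 0.91 ± 0.36 FPKM in KO (SD, n = 3 each).

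In NS-DADm hearts 2 of 8 tested genes of this list rose, against 1.26% of all genes tested, and both are proteases. Ctsl was at 38.9, 40.4 and 41.9 FPKM in WT and at 57.0, 53.4 and 59.1 FPKM in the mutant (log2 fold change 0.47, limma adjusted p = 0.0063). Lgmn was at 50.4, 52.5 and 51.4 FPKM in WT and at 65.4, 63.8 and 69.99 FPKM in the mutant (log2 fold change 0.36, limma adjusted p = 0.016). As with Ctss, all 3 mutant libraries were above WT and replicate 2 was the lowest mutant library, as it was for the class II genes. Replicate 3 was the highest, for Ctss only narrowly (32.05 FPKM against 31.86 FPKM in replicate 1). Without WT replicate 1 or 2 or NS-DADm replicate 3 of that experiment, 1 gene of the list was called. The list's median was 0.18, against -0.02 over all genes. The KO effect was higher than the NS-DADm effect for 8 of 9 genes of the list, Ctsl (0.43, adjusted p = 0.000135) and Lgmn (0.59, adjusted p = 1.72e-05) included.

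Of 16 tested genes that encode the X and Y box proteins or belong to the interferon gamma route, 5 rose and 3 fell in KO hearts, shares no higher than the 38.2% and 27.6% of all genes, with a median log2 fold change of -0.02; with libraries centred on their median, 5 fell. Rfxap, a subunit of the RFX complex, fell from 6.11 ± 0.384 to 3.52 ± 0.269 FPKM (SD, n = 3 each, limma adjusted p = 1.97e-05). Of the subunits of the Y box factor NF-Y, Nfya rose from 5.66 ± 0.675 to 8.08 ± 0.269 FPKM (limma adjusted p = 0.000546), Nfyb fell from 6.01 ± 0.189 to 4.8 ± 0.459 FPKM (limma adjusted p = 0.00747) and Nfyc was not called (SD, n = 3 each). Rfx5 and Rfxank were not called. The rises included Spi1, which encodes the myeloid factor PU.1, from 3.64 ± 0.696 to 22.0 ± 1.11 FPKM, and Irf8, from 2.83 ± 0.429 to 8.83 ± 0.629 FPKM. Ifng, the interferon gamma gene, was listed at 0 in all 6 libraries of the KO experiment and at 0.14 FPKM or less in those of the other. In NS-DADm hearts 0 of the 16 were called by limma, 7 had an unadjusted p under 0.05, and 1 was called without NS-DADm replicate 2. The share of all genes at that unadjusted cut is not given here. The list moved in both directions, with a log2 fold change of 0.42 for Irf8, -0.32 for Rfxap and a median of -0.03.

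The class I route, which shows peptides from inside the cell to CD8+ T cells, had a smaller median change than class II. In KO hearts 10 of 22 tested genes rose and 5 fell, with a median log2 fold change of 0.12; these counts are near the 38.2% and 27.6% called over all genes and set the list apart in neither direction. B2m, the light chain of class I, went from 548 ± 34.4 to 929 ± 15.4 FPKM, and the heavy chains H2-D1 from 138 ± 3.84 to 207 ± 4.01 FPKM and H2-K1 from 115 ± 2.53 to 152 ± 1.73 FPKM (SD, n = 3 each). Those that fell included the peptide transporter subunit Tap2, from 14.3 ± 0.211 to 11 ± 0.394 FPKM, and the proteasome activators Psme1 and Psme2. In NS-DADm hearts 0 of the 22 were called by limma, with a median of 0.11, 3 had an unadjusted p under 0.05, and 1 was called without NS-DADm replicate 2 or with the replicate block. For that unadjusted cut the share of all genes is not given. H2-K1 was at 109, 114 and 94.2 FPKM in WT and at 193, 106 and 138 FPKM in the mutant, the same order of libraries as for class II.

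**Figure D4:**
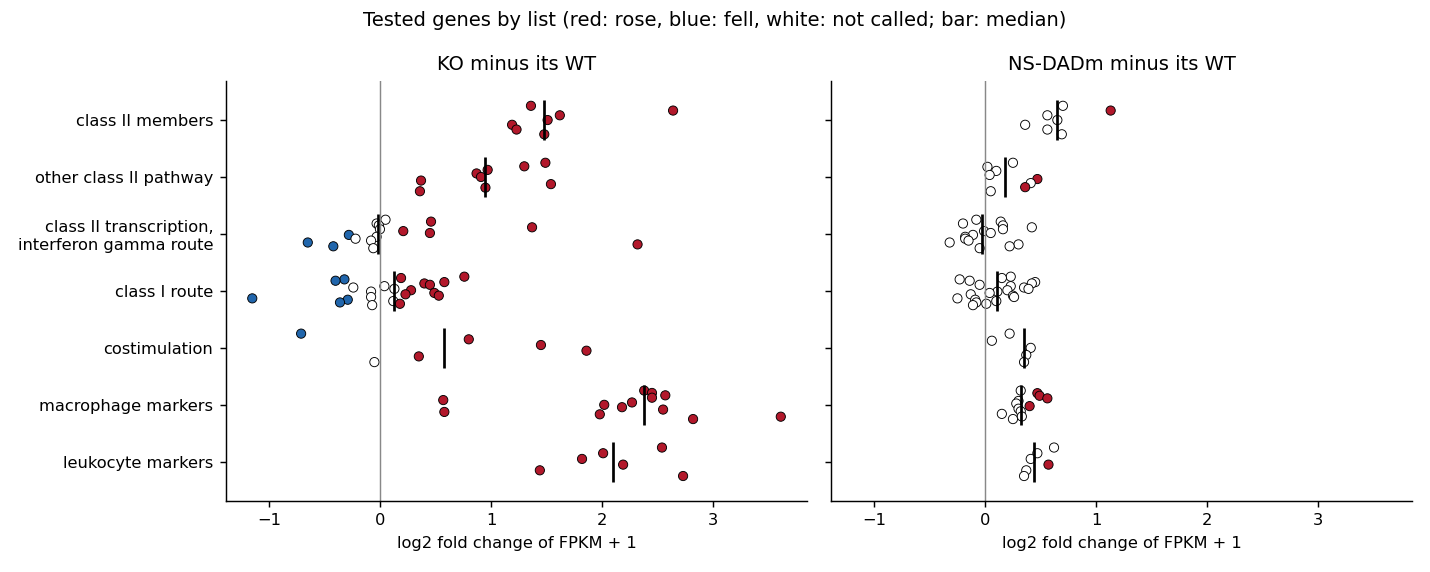
Fitted log2 fold changes of the tested genes of each list, KO (left) and NS-DADm (right) against their own WT; red points rose, blue points fell, white points were not called, and bars are medians. In KO the class II genes have a median of 1.48 and the other class II pathway genes 0.95, while the class II transcription and interferon gamma route (-0.02) and the class I route (0.12) spread to both sides of 0.

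Of the 8 genes, 5 lie together on chromosome 17, where class II genes alternate with class I loading genes. The span from H2-DMa to H2-Eb1 is chr17:34119541-34316674 in GRCm38 and covers 197134 bases. In it start 18 annotated genes, the members included, of which 12 were measured in both experiments. Within it H2-DMa occupies 34119541 to 34139101, H2-DMb1 34153072 to 34160230, H2-Ab1 34257689 to 34269419, H2-Aa 34282744 to 34287823 on the minus strand and H2-Eb1 34305867 to 34316674. Between the DM genes and H2-Ab1 lie Psmb9, Tap1, Psmb8 and Tap2, which cut or transport peptides for class I. In KO hearts Psmb8 rose (log2 fold change 0.53, limma adjusted p = 9.33e-05), Tap2 fell (-0.36, adjusted p = 0.000141), and Psmb9 (-0.08) and Tap1 (0.12) were not called. Brd2, at the edge and overlapping H2-DMa, rose from 28.3 ± 0.678 to 38.0 ± 0.624 FPKM (SD, n = 3 each, limma adjusted p = 6.9e-06). In NS-DADm hearts 0 of 5 tested neighbours were called by limma, and 0 had an unadjusted p under 0.05. The other 3 members lie elsewhere: Cd74 on chromosome 18 (60803848 to 60812652), Ctss on chromosome 3 (95526786 to 95556403) and Ciita on chromosome 16 (10480059 to 10528418).

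**Figure D5:**
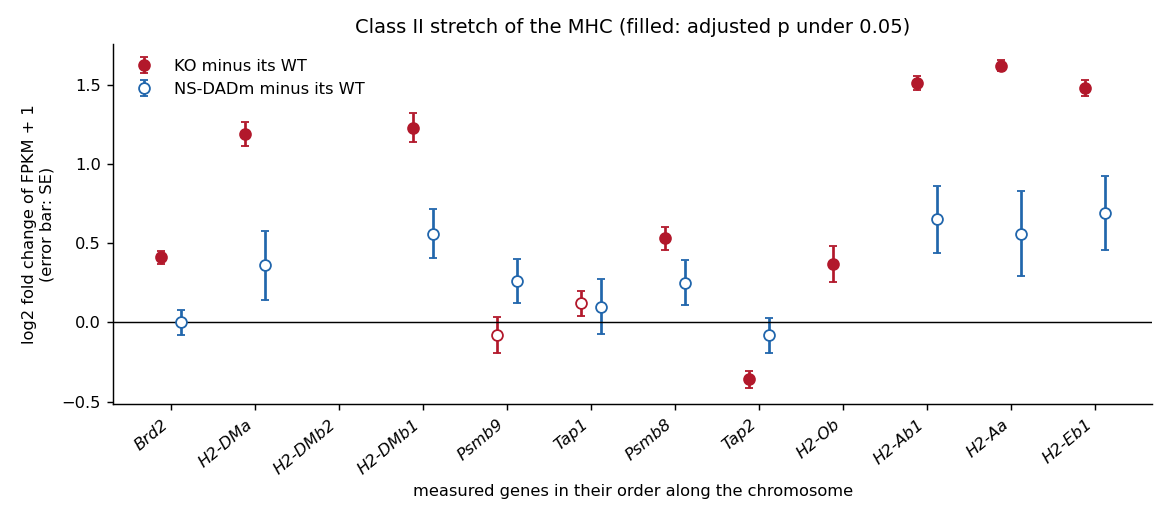
Fitted log2 fold changes with standard errors of the measured genes of the class II stretch, in their order along the chromosome, for KO (red) and NS-DADm (blue); genes without a point were not tested. In KO the 5 class II members lie between 1.19 and 1.62, and the class I loading genes between them lie from -0.36 to 0.53.

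Genes with the most similar pattern were sought among 10806 genes of at least 1 FPKM on average in each table. Likeness was Pearson's r over the 12 libraries with the mean of H2-Aa, H2-Ab1 and H2-Eb1, on log2(FPKM + 1) less the mean of the experiment. Beside the members, Irf7 (r = 0.987), B2m (0.981), Il11ra1 (0.98), Fcer1g (0.977) and Dlgap4 (0.976) came first. Irf7, an interferon-inducible transcription factor, was at 12.4, 12.9 and 12.2 FPKM in WT and at 34.6, 37.2 and 36.8 FPKM in KO, and at 7.16, 7.59 and 7.21 FPKM in WT and at 13.4, 8.74 and 9.69 FPKM in NS-DADm. The KO contrast is part of this measure. With group means removed, so that only the spread between replicates is left, H2-K1 (0.978), H2-D1 (0.968), Nmrk2 (0.949) and Ifit1 (0.944) were among the first 5. H2-D1 was at 122, 120.3 and 115 FPKM in WT and at 199, 139 and 159 FPKM in NS-DADm, highest in replicate 1 as the class II genes were. On this measure Cd74 reached 0.99, Ptprc 0.795, Ctss 0.595, C1qa 0.398 and Csf1r 0.069. The classical chains varied most between the 3 NS-DADm libraries, so this r rests largely on them. H2-Aa was at 129, 68.2 and 85.5 FPKM there, against 267, 276 and 261 FPKM in KO.

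Hdac3 fell in KO hearts from 28.1 ± 1.19 to 7.9 ± 0.6 FPKM and was 29.8 ± 2.02 FPKM in WT and 29.8 ± 0.804 FPKM in NS-DADm (SD, n = 3 each). Sex differed with genotype in the KO experiment: the Y-linked gene Ddx3y was listed at 0 in all 3 WT libraries and stood at 21.4, 21.5 and 22.1 FPKM in the KO libraries, so the effects of sex and of the knockout on the class II genes cannot be told apart there. In the NS-DADm experiment Ddx3y was at 0.06 FPKM or less, and Xist, the RNA of the inactive X chromosome, stood at 15.1 to 20.6 FPKM, in all 6 libraries. The atrial gene Myl7 varied in that experiment, from 9.77 to 795.5 FPKM in WT and from 84.3 to 804 FPKM in NS-DADm, and its r with the classical chains with group means removed was -0.034. Depth, estimated from the steps of low FPKM values, was 8.75 to 10.7 M fragments (M, mega) per library in the KO experiment and 10.75 to 13.4 M in the other. Replicates of the NS-DADm experiment differed more: the chi-square per degree of freedom between libraries of a group was 3.39 to 8.62, against 1.16 to 2.02 in the KO experiment.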

How the data were processed

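RNA of 12 mouse heart libraries, 3 per group, was measured by total RNA sequencing. Per the labels' protocols, reads (an average of 60 M per sample, M for mega) were filtered with SOAPnuke 1.5.2. Per the submitters' processing notes, RSEM 1.2.12, Bowtie2 2.2.5, HISAT2 2.0.4 and DESeq2 1.4.5 were among the tools, with build GRCm38.p6 and no role stated. The authors deposited FPKM per gene and library in 1 table per experiment, per the file headers. Their tables also hold a signed fold change, used here as a score deposited by the authors, and a q-value per gene, per the file headers. Both serve only to quote what the authors listed. Some per-sample columns matched no sample (3) and were not used.

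Of 17076 and 17857 genes, 17043 and 17832 were kept, without those whose symbol was a date (24 in each), a number or missing (7 and 1) or a repeat (2 and 0). For NS-DADm 1654 to 2212 genes per library had no listed value, deposited so by the authors, and were taken as 0; a fit without them is an alternative. The members, lists, tests and the rule for named genes were chosen with earlier results of these data known. The rule names every member, then genes of the lists past the threshold or asked for by their role, the genes of the class II stretch, and the 5 most alike genes by each measure; 1 gene it names is not reported here.

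limma 3.58.1 in R 4.3.3 (trend, robust) was applied to log2(FPKM + 1). Genes needed 1 FPKM in at least 3 libraries, with Benjamini-Hochberg adjustment over all genes and a threshold of 0.05. It was tested on simulated data. Fitted changes understate those of low genes; folds are ratios of mean FPKM. Each mutant was tested within its own table, and the difference of the effects over 12 libraries with 4 group means. Replicates are called biological in the labels, with no word on animals, so p-values measure the spread between these libraries.

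Depth was estimated from low FPKM values, of which 62.8% to 71.3% per library lay within 0.15 of a whole number of fragments, where chance gives 30%. As this is far from all, fragment counts rebuilt from this depth were not used to test genes. The estimated fragments of Ciita and the chi-square between replicates rest on them and share that limit. Alternatives changed the pseudocount, filter, scaling, variance model, missing values, replicate block and the libraries used. Positions come from GENCODE M21, in which 18441 of 19404 symbols were found, and promoters from RefSeq.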

Additional observations from a re-analysis of the deposited data

Results flagged for a closer look

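The effects of KO and NS-DADm differed, by a test of the difference itself in all 12 libraries, for every one of the 7 tested class II genes. The KO effect exceeded the NS-DADm effect on the log2 scale by 1.06 for H2-Aa, 0.86 for H2-Ab1, 0.8 for H2-Eb1, 0.84 for H2-DMa, 0.67 for H2-DMb1, 0.65 for Cd74 and 1.51 for Ctss. A higher KO effect was called for 28.2% of all genes tested. Sex went with genotype in the KO experiment, so its part in these differences cannot be told apart from that of the knockout, and the part of the wider spread between NS-DADm replicates was not tested.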

How the results depend on the processing

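All 7 tested genes were called higher in KO under each of 13 alternatives, and Ctss was called in NS-DADm under each of 14, with log2 fold changes of 1.08 to 1.22. The number of members called in NS-DADm was 1 to 2 and that for the difference 5 to 7 when 1 library was left out. Counts over all genes moved in NS-DADm: with no filter 70 genes were higher and 94 lower, and without 1 library 47 to 120 were higher and 37 to 128 lower, against 148 and 167. Without 1 library KO had 3798 to 4412 genes higher and 2940 to 3044 lower, and the difference 2707 to 3244 and 1853 to 2097. The log2 ratio of class II to macrophage genes, KO over WT, was -0.61, and it was -0.98 with Cd68 and the C1q genes as denominator, -0.56 without Cd74, 0.3, of the opposite sign, with the 5 resident macrophage markers as denominator (added after seeing the data; no other value changed sign), and -0.62 to -0.59 without 1 library; in NS-DADm it was 0.33, and 0.04 to 0.49 without 1 library. Same-numbered libraries did not deviate together throughout (correlations of -0.06, -0.02 and 0.0 in the KO experiment, 0.01, 0.38 and 0.44 in the other), so the numbers were not taken as pairs; with the replicate number as a block 258 genes were higher and 238 lower in NS-DADm, and the members called stayed at 7, 1 and 7 in KO, NS-DADm and the difference. Not every library correlated best with its own number. At 20 to 60 estimated fragments per library, depth limits what can be told of Ciita.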

Other observations

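Ligands that accompany class II in the stimulation of T cells were measured as well. In KO hearts 4 of 6 tested genes of that list rose and 1 fell, against 38.2% and 27.6% of all genes tested, with a median log2 fold change of 0.57. Cd86 went from 1.78, 1.94 and 1.9 FPKM to 9.26, 8.76 and 10.3 FPKM (log2 fold change 1.86, limma adjusted p = 5.14e-09), and Cd40 from 1.09, 1.15 and 1.08 FPKM to 2.37, 2.44 and 3.26 FPKM (0.80, adjusted p = 4.25e-05). Cd80, under 1 FPKM in every WT library and so tested only through KO, went from 0.59 ± 0.108 to 3.36 ± 0.364 FPKM (SD, n = 3 each). The ligand of the inhibitory receptor PD-1, Cd274, fell from 4.98, 5.1 and 5.69 FPKM to 2.8, 2.87 and 2.81 FPKM (-0.71, limma adjusted p = 7.63e-06). In NS-DADm hearts 0 of 5 tested genes were called by limma, 3 had an unadjusted p under 0.05, and 1 was called without NS-DADm replicate 2. How many of all genes passed that unadjusted cut is not given. Cd274 was at 3.37, 4.85 and 2.58 FPKM in WT and 5.96, 3.08 and 4.11 FPKM in the mutant.

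Other immune markers were low. Ccr2, a receptor of recruited monocytes, rose in KO hearts from 2.1 ± 0.399 to 10.5 ± 1.08 FPKM (SD, n = 3 each, limma adjusted p = 4.49e-08), and T and NK cell markers summed to between 6.33 and 7.92 FPKM in WT and between 10.4 and 12.3 FPKM in KO. In the NS-DADm experiment the same sum was 2.27 to 5.93 FPKM in WT and 1.77 to 3.03 FPKM in the mutant.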
